A study of Mus musculus with 16 samples.

Results

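The genes for the enzymes of the pentose phosphate pathway were followed in RNA sequencing of the mouse left ventricle. They were chosen by name, with earlier results of these data known but by a rule that uses no measured value, as the oxidative enzymes *G6pdx*, *Pgls*, *Pgd* and *H6pd*, the non-oxidative enzymes *Rpia*, *Rpe*, *Tkt* and *Taldo1*, and *Prps1* and *Prps2*, which draw on the pathway's product. All 10 were found among the 55492 genes of the table, and all 10 passed the filter of a mean of at least 10 normalized counts, as did 20576 genes in all. The 16 libraries came from hearts of male C57BL/6 mice aged 8 to 12 weeks. The control mice, PKM2fl/fl, carried *Pkm* alleles in which loxP sites flank the exon of the PKM2 isoform. The PKM2-/- mice had lost that exon throughout the body after a cross to a CMV-driven Cre, and the Cre allele was then bred out. The loss was therefore not limited to cardiomyocytes or to adult life, and the controls were floxed and not wild type. Each genotype had 2 libraries from hearts without surgery (baseline), 3 taken after sham surgery and 3 taken 3 days after myocardial infarction (MI). The sample titles gave the day for MI and not for sham surgery. In MI the left anterior descending coronary artery was tied off for good, and in sham surgery it was not. The labels did not say which zone of the injured ventricle was sampled, and they named no sequencing batch.

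The pentose phosphate pathway branches from glycolysis at glucose-6-phosphate. Its oxidative arm reduces NADP+ to NADPH, which serves glutathione and thioredoxin reduction, fatty acid synthesis and the NADPH oxidases of phagocytes. Its non-oxidative arm interconverts sugar phosphates and returns carbon to glycolysis, and ribose phosphate from either arm feeds nucleotide synthesis through phosphoribosyl pyrophosphate (PRPP). The pathway is of small flux in the healthy heart muscle and prominent in activated leukocytes and dividing cells. PKM2, a pyruvate kinase, acts at the last step of glycolysis, and its activity is held to influence how much glucose carbon enters the branch.

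The 250 bases before the RefSeq transcription start were read for *G6pdx*, *Pgd* and *Tkt*, because these had the largest changes of the set after MI. Sequences are from RefSeq on GRCm38.p6, written 5′ to 3′ on the gene's strand, with capitals marking an antioxidant response element or a GC box. For *G6pdx* the element is shown with 10 bases on each side, because 6 of its 8 protein-coding GENCODE transcripts run through the whole window and so start further upstream than the RefSeq start used here.
*G6pdx*, chrX:74428919-74428947, minus strand: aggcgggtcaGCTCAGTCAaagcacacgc
*Pgd*, chr4:149166706-149166955, minus strand: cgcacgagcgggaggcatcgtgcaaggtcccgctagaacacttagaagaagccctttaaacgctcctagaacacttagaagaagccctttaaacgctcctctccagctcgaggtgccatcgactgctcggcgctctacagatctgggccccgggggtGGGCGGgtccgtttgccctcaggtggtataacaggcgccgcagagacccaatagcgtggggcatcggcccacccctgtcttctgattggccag
*Tkt*, chr14:30548881-30549130, plus strand: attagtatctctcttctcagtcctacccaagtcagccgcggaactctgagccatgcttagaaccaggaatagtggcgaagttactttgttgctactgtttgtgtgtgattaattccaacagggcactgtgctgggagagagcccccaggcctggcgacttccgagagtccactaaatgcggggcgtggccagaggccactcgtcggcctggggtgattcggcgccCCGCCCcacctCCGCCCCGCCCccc
The antioxidant response element was searched as TGACNNNGC on both strands. Of the 10 members, the window of *G6pdx* held a match, which began 57 bases before the start, and the windows of the other members did not. It was found in 10.2% of the 32851 promoters of the same length. The GC box, GGGCGG on either strand, was found in a window of each member except *H6pd* and *Prps2*, and in 32.7% of all promoters. *Tkt* had 3 matches, of which the 2 nearest the start overlapped. The E-box CACGTG was found in none of the members' windows and in 6.02% of all promoters. A further *Pgd* window held none of the motifs. The *H6pd* window lay inside its gene (window end 150003486, gene end 150009023, minus strand). The *Prps2* window began inside its gene, at 167382750 with the gene's end at 167382872. For *H6pd* and *Prps2* the search therefore did not cover the 250 bases before the gene's outer end. A match describes these letters and not the binding of a factor.

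Libraries held 20623769 to 71855101 reads on genes, and member genes rested on 76 to 2700 reads per library. The share of reads on the rRNA-related locus *CT010467.1* ran from 0.111% to 25.1%, and outside MI it separated the genotypes. It was 0.256% to 0.494% in PKM2fl/fl and 7.63% to 8.25% in PKM2-/- libraries at baseline, and 0.111% to 1.39% against 4.14% or more after sham surgery. Mitochondrial rRNA took 17.0% to 21.6% of reads in PKM2fl/fl and 30.9% to 34.7% in PKM2-/- libraries at baseline, overlapped after sham surgery, and took 17.1% to 20.1% against 13.3% to 14.2% after MI. With the log2 normalized count of *CT010467.1* as a covariate, 0 members were called between the genotypes at baseline, after sham surgery or after MI. Of all 20576 genes, 0, 0 and 174 were called in these fits. At baseline and after sham surgery the locus separated the genotypes, so the fit cannot tell its part from that of genotype. The part of mitochondrial rRNA in the genotype values was not tested. In the PKM2fl/fl MI group the *CT010467.1* share was 25.1%, 1.72% and 23.0%. The summed cardiomyocyte markers of PKM2fl/fl MI replicate 3 were 202552 normalized counts, against 471165 and 455287 in replicates 1 and 2, so results that rest on this library are given with and without it. The targeted gene *Pkm* had 9602 and 9108 normalized counts in PKM2fl/fl and 11981 and 12984 in PKM2-/- hearts at baseline. These counts cover the whole gene and do not check the loss of the PKM2 exon.

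Most genes of the pathway were higher after MI than after sham surgery in both genotypes, and the NADPH-producing cytosolic enzymes and transketolase rose most. In PKM2fl/fl hearts, 8 of the 10 members passed the test against sham (limma, Benjamini-Hochberg adjusted p under 0.05), 6 higher and 2 lower, where 50.1% of all genes tested passed, 24.8% higher and 25.3% lower. In PKM2-/- hearts 7 passed, 6 higher and 1 lower, against 56.8% of all genes, 28.7% higher and 28.1% lower. *G6pdx*, *Pgd* and *Tkt* passed with at least a 2-fold rise in each genotype, a rise reached by 12.4% of all genes in PKM2fl/fl and 14.5% in PKM2-/- hearts. The median log2 fold change of the 10 members was 0.34 in PKM2fl/fl and 0.70 in PKM2-/- hearts, and the medians over all genes were 0.00 and 0.01. The MI comparisons of the genotypes shared no library, but came from the same model of all 16 libraries. Each test thus used the spread of the libraries of both genotypes.

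*G6pdx* encodes glucose-6-phosphate dehydrogenase, which commits glucose-6-phosphate to the pathway. It had 248, 277 and 219.6 normalized counts in the PKM2fl/fl sham libraries and 705, 540.1 and 658 after MI. The PKM2-/- hearts had 249, 225 and 291 after sham surgery and 707, 719.6 and 672 after MI. Every MI library was above every sham library in both genotypes. The rise was 2.54-fold in PKM2fl/fl (log2 fold change 1.35, standard error 0.15, adjusted p = 5.56e-06, limma) and 2.75-fold in PKM2-/- hearts (log2 fold change 1.46, standard error 0.15, adjusted p = 1.65e-06, limma).

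*Pgd*, 6-phosphogluconate dehydrogenase, makes the pathway's further NADPH and releases CO2. It stood at 461, 537 and 512 in PKM2fl/fl sham and at 1444, 1092 and 1538 in PKM2fl/fl MI libraries. The PKM2-/- values were 489, 485 and 506 after sham surgery and 1569, 1566 and 1811 after MI. Its 3 sham libraries lay close together in each genotype, and no MI library came near them. The rise was 2.67-fold in PKM2fl/fl (log2 fold change 1.42, standard error 0.12, adjusted p = 6.11e-07, limma) and 3.33-fold in PKM2-/- hearts (log2 fold change 1.74, standard error 0.12, adjusted p = 7.78e-08, limma), the largest of the 10 members in each genotype.

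*H6pd* encodes the hexose-6-phosphate dehydrogenase of the endoplasmic reticulum lumen, which makes NADPH there apart from the cytosolic pathway. Its PKM2fl/fl values were 1006, 1099 and 1019.7 after sham surgery and 1543, 1156 and 1591 after MI. Its PKM2-/- values were 995, 1205 and 1004 and 1762, 1715 and 1900.0. The groups did not overlap in either genotype, although PKM2fl/fl MI replicate 2 lay just above the sham range. *H6pd* rose 1.36-fold in PKM2fl/fl (log2 fold change 0.44, standard error 0.12, adjusted p = 0.00569, limma) and 1.68-fold in PKM2-/- hearts (log2 fold change 0.75, standard error 0.12, adjusted p = 6.91e-05, limma).

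*Pgls*, 6-phosphogluconolactonase, opens the lactone that *G6pdx* yields and makes no NADPH. It was the oxidative member that did not pass the test in either genotype. It had 487, 498 and 516 normalized counts in PKM2fl/fl sham and 434, 465 and 357 in PKM2fl/fl MI libraries, where all MI values were the lower (log2 fold change -0.26, 95% interval -0.62 to 0.09, limma adjusted p = 0.199). In PKM2-/- hearts, 459.8, 388 and 621 after sham surgery and 569, 443 and 441 after MI overlapped (log2 fold change 0.00, 95% interval -0.35 to 0.36).

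**Figure D1:**
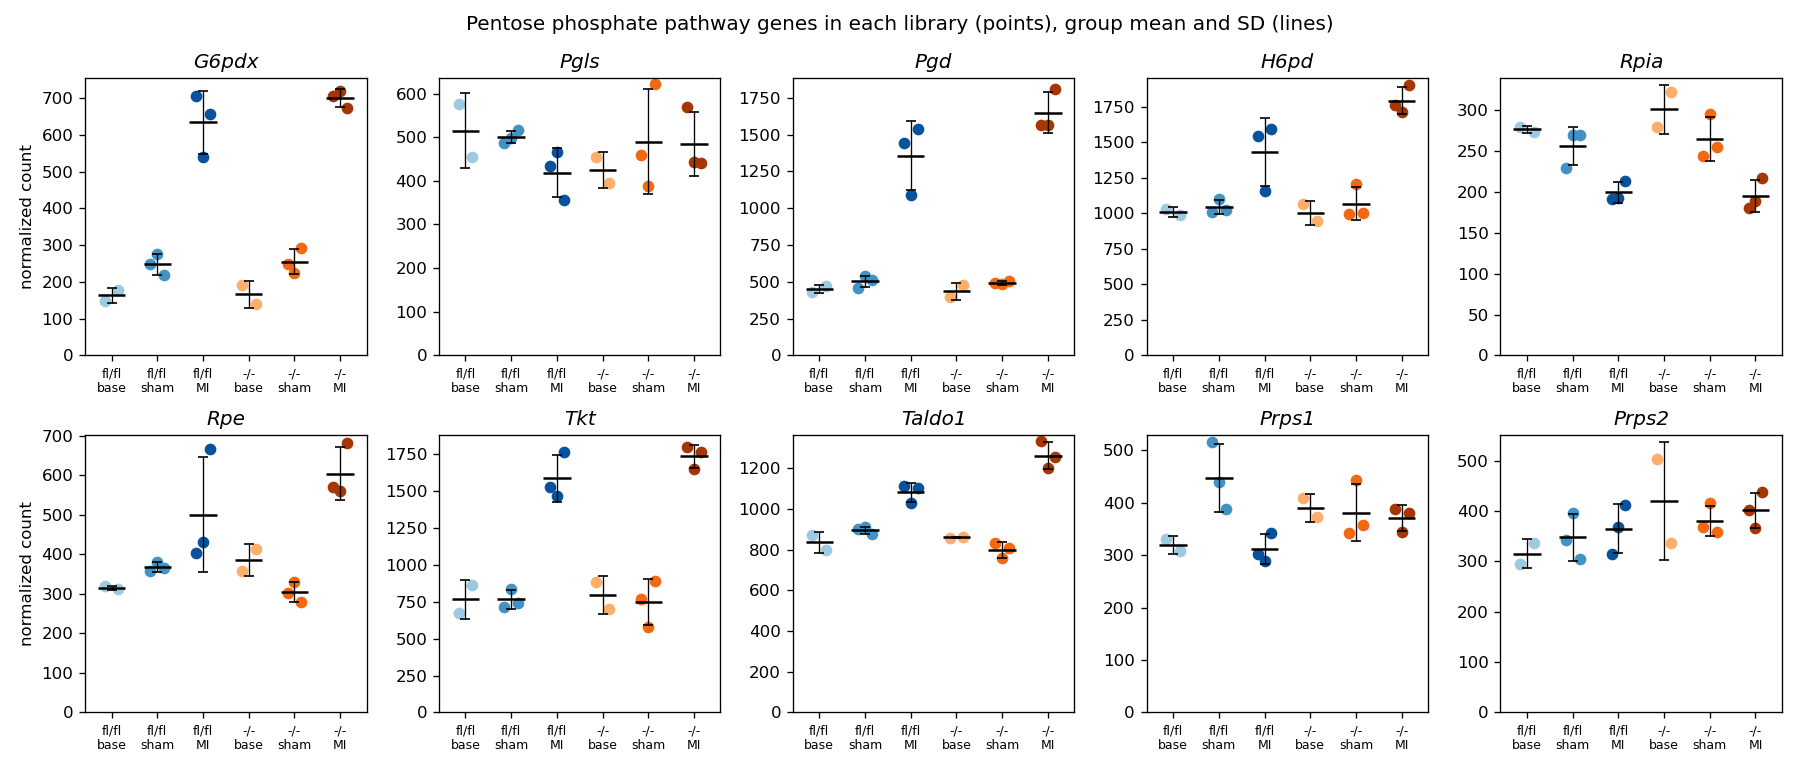
Normalized counts (vertical axes, from 0) of the 10 genes in each of the 16 libraries (points), by genotype (fl/fl, PKM2fl/fl in blue; -/-, PKM2-/- in orange) and treatment, with the group mean (long line) and SD (whiskers), n = 2 at baseline and n = 3 otherwise. *G6pdx*, *Pgd* and *Tkt* stood at least 2-fold above sham after MI in both genotypes, and *Rpia* was lower.

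In the non-oxidative arm, the carbon-transferring enzymes rose after MI and the ribose phosphate isomerase fell. *Tkt*, transketolase, moves carbon units between sugar phosphates with thiamine pyrophosphate as cofactor. It had 716, 837 and 745 normalized counts after sham surgery and 1530.3, 1465 and 1767 after MI in PKM2fl/fl hearts. The PKM2-/- hearts had 772, 579 and 889 and 1799.6, 1649 and 1761. The MI libraries formed a separate, higher cluster in each genotype. *Tkt* rose 2.07-fold in PKM2fl/fl (log2 fold change 1.05, standard error 0.15, adjusted p = 3.81e-05, limma) and 2.36-fold in PKM2-/- hearts (log2 fold change 1.24, standard error 0.15, adjusted p = 5.68e-06, limma).

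*Taldo1*, transaldolase, works with transketolase in the same reshuffling of carbon. Its PKM2fl/fl values were 899, 908 and 877 after sham surgery and 1115, 1029 and 1101 after MI, and its PKM2-/- values were 834, 756 and 808 and 1332, 1198 and 1254. The groups were apart in both genotypes, by a small step in PKM2fl/fl hearts. The rise was 1.21-fold in PKM2fl/fl (log2 fold change 0.27, standard error 0.08, adjusted p = 0.0103, limma) and 1.58-fold in PKM2-/- hearts (log2 fold change 0.66, standard error 0.08, adjusted p = 6.69e-06, limma).

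*Rpe*, ribulose-phosphate 3-epimerase, makes the xylulose phosphate that transketolase uses. It had 357, 382 and 365 normalized counts after sham surgery and 403, 431 and 668 after MI in PKM2fl/fl hearts, so that MI replicate 3 stood well above its group. The values in PKM2-/- hearts were 302, 330.4 and 280.5 and 571, 560.2 and 681, with every MI library far above the sham libraries. *Rpe* rose 1.98-fold in PKM2-/- hearts (log2 fold change 0.98, standard error 0.16, adjusted p = 7.93e-05, limma) and 1.33-fold in PKM2fl/fl hearts (log2 fold change 0.41, standard error 0.16, adjusted p = 0.0427, limma). The PKM2fl/fl call was lost without MI replicate 3 (log2 fold change 0.18, limma adjusted p = 0.241) and also without sham replicate 1, 2 or 3 (limma adjusted p = 0.104, 0.0666 and 0.0896). Part of *Rpe* cannot be told from its neighbour without strand, since 16.9% of its exon bases, over all annotated transcripts, were shared with *Kansl1l* on the opposite strand. In the canonical *Rpe* transcript of 4684 bases, a stretch of 1772 bases matched *Kansl1l* at 100%. *Kansl1l* held up to 5160 reads in a library, against at most 882 for *Rpe*. The part of *Kansl1l* reads in the *Rpe* values was not tested.

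*Rpia*, ribose-5-phosphate isomerase, makes the ribose phosphate used for nucleotides. It was the member that was lower after MI in both genotypes. It had 229.7, 270.0 and 269.6 normalized counts after sham surgery and 192, 193 and 214 after MI in PKM2fl/fl hearts, and 244, 295 and 256 and 180.0, 189 and 218 in PKM2-/- hearts. All MI values lay under all sham values in each genotype. *Rpia* fell to 1/1.28 of sham in PKM2fl/fl (log2 fold change -0.36, standard error 0.13, adjusted p = 0.0267, limma) and to 1/1.35 in PKM2-/- hearts (log2 fold change -0.44, standard error 0.13, adjusted p = 0.00769, limma). The PKM2fl/fl call was lost without sham replicate 2 or 3 or MI replicate 1 or 2 (limma adjusted p = 0.0677 to 0.0889). Scaling to total reads, which moved the median of all genes by 0.52 in PKM2-/- hearts, turned the PKM2-/- value to 0.07.

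The genes for PRPP synthetase, which hands ribose phosphate to nucleotide synthesis, differed from the NADPH-producing genes. *Prps1* had 517, 439 and 388 normalized counts in PKM2fl/fl sham and 303, 288 and 343 in PKM2fl/fl MI libraries, with no overlap. It fell to 1/1.43 of sham (log2 fold change -0.52, standard error 0.13, adjusted p = 0.00388, limma). The PKM2-/- values overlapped, at 342, 443 and 358 after sham surgery and 389, 344 and 381 after MI (log2 fold change -0.03, 95% interval -0.31 to 0.25, limma adjusted p = 0.858). *Prps2* overlapped between sham and MI in both genotypes. It had 342, 397 and 305 against 315, 369 and 412 in PKM2fl/fl and 368, 415 and 358 against 401, 366 and 437 in PKM2-/- hearts (log2 fold changes 0.07 and 0.08, limma adjusted p = 0.732 and 0.697).

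Counted by overlap alone, 9 of the 10 members had MI and sham libraries apart in PKM2fl/fl and 7 in PKM2-/- hearts, while 59.0% and 62.3% of all genes tested were apart in the same way. *G6pdx*, *Pgd* and *Tkt* stayed called in both genotypes under each alternative test, scaling and left-out library. The other PKM2fl/fl calls were less firm. With total-count scaling, or with *CT010467.1* as a covariate, those 3 genes alone passed in PKM2fl/fl hearts.

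**Figure D2:**
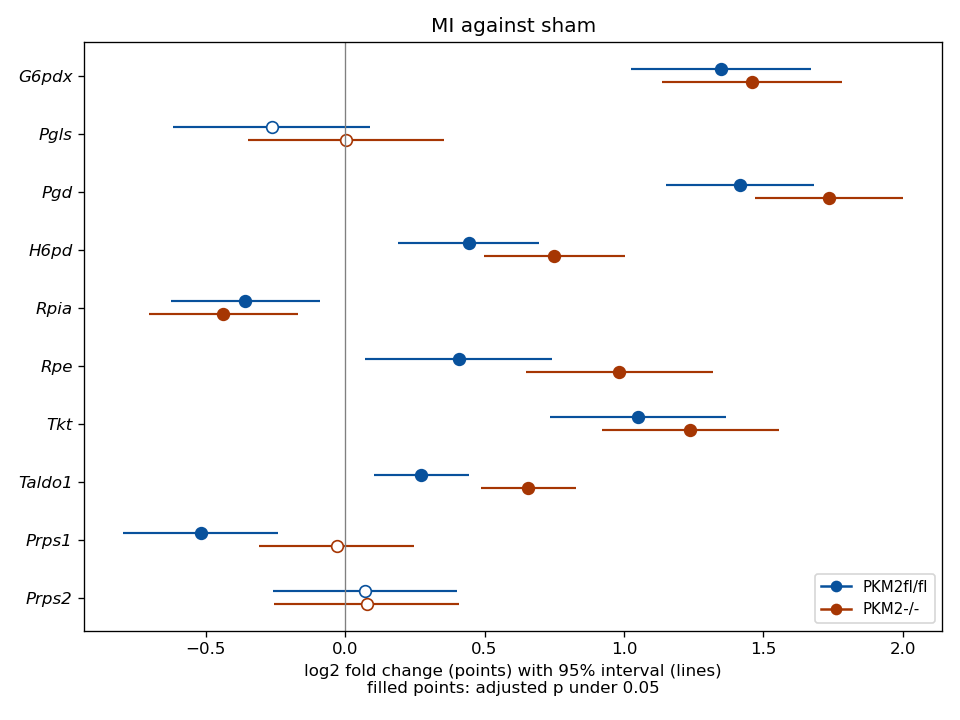
Log2 fold change of MI against sham (horizontal axis) for each member in PKM2fl/fl (blue) and PKM2-/- (orange) libraries, with 95% intervals from limma; filled points passed an adjusted p of 0.05. The values ran from -0.52 for *Prps1* to 1.42 for *Pgd* in PKM2fl/fl, and from -0.44 for *Rpia* to 1.74 for *Pgd* in PKM2-/- hearts.

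Cell type markers moved with these results. The cardiomyocyte markers checked the labelled tissue, since *Myh6*, *Atp2a2* and *Actc1* were abundant in all groups. The sum of the 8 listed was 1062729 to 1196174 normalized counts after sham surgery and 202552 to 471165 after MI in PKM2fl/fl hearts. In PKM2-/- hearts it was 969017 to 1163862 after sham surgery and 210244 to 288061 after MI. After MI, 7 of 8 fell in PKM2fl/fl and 8 of 8 in PKM2-/- hearts. All 9 macrophage and monocyte markers rose in both genotypes, with sums of 6159 to 11183 after sham surgery and 22345 to 35233 after MI in PKM2fl/fl hearts. The corresponding sums in PKM2-/- hearts were 8546 to 10284 and 31232 to 34757. *Lyz2*, the lysozyme gene of myeloid cells, went from 3959.8 ± 1411 to 13132 ± 3899.9 in PKM2fl/fl hearts (SD, n = 3 each). The 5 proliferation markers all rose, and their sum was 472 to 959 after sham surgery and 6579 to 8806 after MI in PKM2fl/fl hearts. The corresponding PKM2-/- sums were 505 to 831 after sham surgery and 7759 to 9555 after MI.

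Of 7 fibroblast markers, 5 rose and 1 fell in each genotype, with the collagen gene *Col1a1* going from 6147 ± 2781 to 53701 ± 3052 in PKM2fl/fl hearts (SD, n = 3 each). The neutrophil list had 2 of 5 tested markers higher in each genotype, with sums after MI of 1232 to 2141 in PKM2fl/fl and 3529 to 4529.9 in PKM2-/- hearts. *Ly6g* was at 0 in all baseline libraries. Of 6 endothelial markers, 2 rose in each genotype and 1 fell in PKM2-/- hearts. Of 2 lymphocyte markers tested, 1 rose in each genotype. No erythroid (5), atrial (3) or adipocyte (1) marker tested passed after MI in either genotype. The part of these shifts in the changes of the pathway genes was not tested. In whole ventricle, fewer cells of a type and less RNA per cell cannot be told apart.

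The genotypes were then compared within each treatment. After MI, 9 of 10 members had higher means in PKM2-/- hearts, and 0 passed limma's test, where 0.967% of all genes passed. The median log2 fold change was 0.22 over the members and -0.004 over all genes. The members were read in the same libraries, so their signs are not independent. At an unadjusted p under 0.05 there were 3 members, *H6pd*, *Taldo1* and *Pgd*, where 17.0% of all genes reached that level. *H6pd* was 1792 ± 96.3 in PKM2-/- and 1430.1 ± 238 in PKM2fl/fl MI libraries (SD, n = 3 each), which differed by a log2 value of 0.34 (limma adjusted p = 0.163). *Taldo1* was 1261 ± 67.1 and 1081 ± 46.1 (log2 fold change 0.22, limma adjusted p = 0.175). *Pgd* was 1648 ± 140.4 and 1358 ± 235 (log2 fold change 0.29, limma adjusted p = 0.249). The MI libraries of the genotypes did not overlap for *Pgd*, *H6pd*, *Taldo1* and *Prps1*, and did not for 18.9% of all genes. edgeR and DESeq2 on the recovered reads called 0 members as well.

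Cell markers differed among the same MI libraries, and their part in the genotype values was not tested. PKM2fl/fl MI replicates 1 and 2 had cardiomyocyte sums of 471165 and 455287, above every PKM2-/- MI library (210244 to 288061). Replicate 3, at 202552, was closer to the PKM2-/- libraries. A fit without replicate 3 thus compares PKM2fl/fl libraries of larger sums with PKM2-/- libraries of smaller sums. PKM2fl/fl MI replicate 2 had the lowest *G6pdx*, *Pgd*, *H6pd*, *Tkt* and *Taldo1* values of the 6 MI libraries and the lowest macrophage sum, 22345. Without PKM2fl/fl MI replicate 3, *H6pd* (log2 fold change 0.42, adjusted p = 0.0375) and *Rpe* (0.53, adjusted p = 0.0114) passed limma's test between the genotypes after MI. The share of all genes called was 11.1% without that library, against 0.967% with all libraries, where neither member passed.

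The difference between the genotypes in the response to MI was tested as an interaction. The estimate was positive for 9 of 10 members, and 0 members and 0 genes in all passed limma's test. Its median was 0.29 over the members and -0.008 over all genes. edgeR and DESeq2 called 0 members as well, and 0 and 60 genes in all. At an unadjusted p under 0.05 there were 3 members, against 8.28% of all genes. They were *Taldo1* (difference of log2 fold changes 0.38, 95% interval 0.14 to 0.63, limma adjusted p = 0.430), *Prps1* (0.49, 0.09 to 0.88, adjusted p = 0.540) and *Rpe* (0.58, 0.10 to 1.05, adjusted p = 0.540). For *G6pdx* the difference was 0.11 with an interval of -0.34 to 0.57, and for *Tkt* it was 0.19 with -0.26 to 0.64. These data therefore do not show that the response differed, nor that it was alike. Without PKM2fl/fl MI replicate 3 the *Rpe* difference was 0.80 and passed (adjusted p = 0.0193, limma), as 2.37% of all genes then did.

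**Figure D3:**
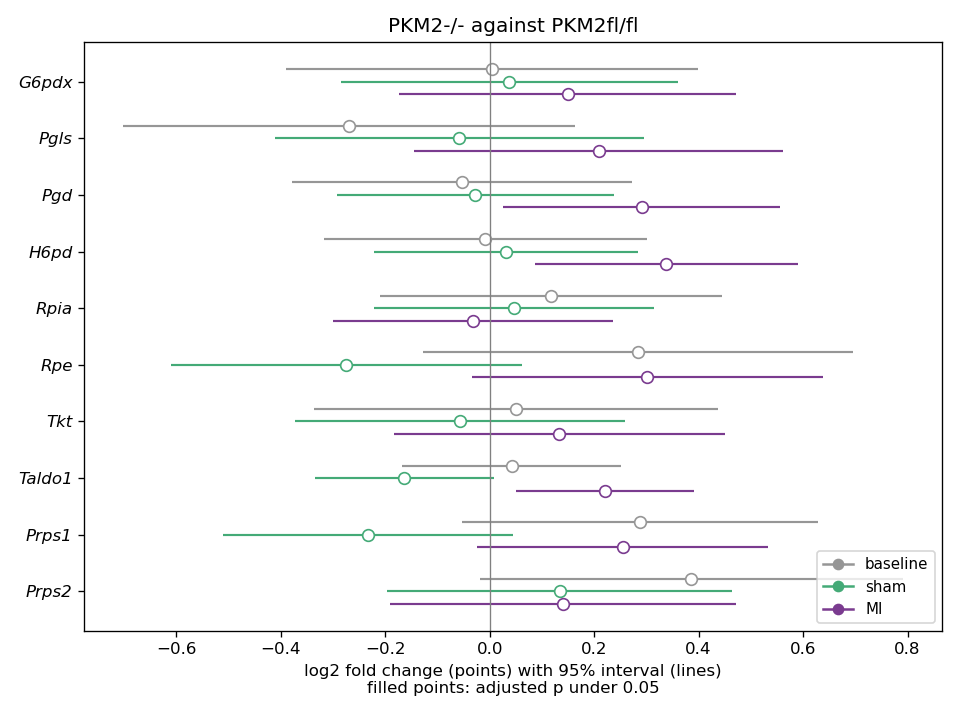
Log2 fold change of PKM2-/- against PKM2fl/fl (horizontal axis) for each member at baseline (grey), after sham surgery (green) and after MI (purple), with 95% intervals from limma. All points are open, since 0 members passed an adjusted p of 0.05, and after MI the largest was 0.34 for *H6pd*.

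In hearts without surgery, the pathway genes did not pass a test between the genotypes. limma called 0 of the 10 members at baseline, where 0.00972% of all genes passed, and 0 reached an unadjusted p under 0.05, a level reached by 3.64% of all genes. edgeR and DESeq2 called 0 members too. *G6pdx* had 149 and 178 normalized counts in PKM2fl/fl and 192 and 139 in PKM2-/- hearts, a log2 difference of 0.00 with a 95% interval of -0.39 to 0.40. *Tkt* had 673 and 860.5 and 885 and 702, overlapping, with an interval of -0.34 to 0.44. The PRPP synthetase gene *Prps2* had 295 and 336 in PKM2fl/fl and 503 and 337 in PKM2-/- hearts, the largest baseline difference of the set (log2 fold change 0.39, interval -0.02 to 0.79). Both PKM2-/- libraries lay above both PKM2fl/fl libraries for *Rpia*, *Rpe*, *Prps1* and *Prps2*, as 34.9% of all genes tested lay apart with 2 libraries against 2.

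After sham surgery, limma called 0 members between the genotypes (0.00972% of all genes) and 0 had an unadjusted p under 0.05 (9.95% of all genes), and edgeR and DESeq2 also called 0. *Rpe* and *Taldo1* had all PKM2-/- sham values under all PKM2fl/fl sham values, as 16.5% of all genes lay apart. Averaged over the treatments, 0 members passed in limma, edgeR or DESeq2 (0.102% of all genes in limma), and *Prps2* had the smallest unadjusted p, with a log2 fold change of 0.22 (95% interval 0.01 to 0.43, adjusted p = 0.406, limma). At unadjusted p under 0.05 it was the 1 member, against 11.4% of all genes.

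Between sham and baseline, *G6pdx* was the member that passed limma's test, in PKM2-/- hearts. In PKM2-/- hearts *G6pdx* rose from 192 and 139 at baseline to 249, 225 and 291 after sham surgery (log2 fold change 0.63, standard error 0.17, adjusted p = 0.0440, limma), the 1 member called where 5.14% of all genes were. DESeq2 called it too. The call was lost with edgeR, with total-count scaling, with no filter on low values, with the replicate block, with the compared groups alone and without PKM2-/- baseline replicate 2 or PKM2-/- sham replicate 1 or 3. In PKM2fl/fl hearts the values were 149 and 178 at baseline and 248, 277 and 219.6 after sham surgery (log2 fold change 0.60, limma adjusted p = 0.186), with all sham values higher, and 0 members passed (0.190% of all genes in limma, and 0 members with edgeR or DESeq2). Sham and baseline libraries did not overlap for 5 members in PKM2fl/fl (*G6pdx*, *Rpe*, *Taldo1* and *Prps1* higher, *Rpia* lower) and 4 in PKM2-/- hearts (*G6pdx* and *Pgd* higher, *Rpe* and *Taldo1* lower), against 32.5% and 34.5% of all genes. In PKM2fl/fl hearts, *G6pdx* and *Prps1* (log2 fold change 0.48) had an unadjusted p under 0.05, as 8.81% of all genes did. The sham libraries also held more macrophage marker RNA, with sums of 4413 to 5507 at baseline against 6159 to 11183 in PKM2fl/fl and 4440.2 to 6091 against 8546 to 10284 in PKM2-/- hearts. Of the markers, 3 of 9 macrophage, 5 of 5 neutrophil and 4 of 5 proliferation markers were called higher after sham surgery in PKM2-/- hearts. So were 3 of 7 fibroblast markers and the 1 adipocyte marker tested, *Cfd* (log2 fold change 3.00), and the part of these markers in the *G6pdx* value was not tested.

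Levels of different genes were compared per kilobase of transcript. In PKM2fl/fl sham hearts *Taldo1* was the highest, at 707 ± 12.7 normalized counts per kilobase, followed by *Pgls* at 529.9 ± 15.3 and *Tkt* at 237 ± 19.5 (SD, n = 3). *G6pdx*, whose product controls entry into the pathway, was the lowest at 42.1 ± 4.87 and was not separated from *Prps2* at 47.8 ± 6.38. After MI in PKM2fl/fl hearts *Tkt* reached 491 ± 49.2, *Pgd* 395 ± 68.5 and *G6pdx* 107 ± 14.4 per kilobase. *Tkt*, *Pgls*, *Pgd* and *H6pd* then followed *Taldo1*, and no neighbouring pair among those 4 was separated beyond its libraries. In PKM2-/- MI hearts the order of the first 6 genes was the same, and *Pgd* at 480.0 ± 40.9 lay above *H6pd* at 392 ± 21.1 with no overlap. The order depended on the length used. By longest coding length, *Pgd* (1138 in PKM2-/- and 937 in PKM2fl/fl MI hearts, per kilobase of coding sequence) was above *Taldo1* (1101) in PKM2-/- and below it (944) in PKM2fl/fl MI hearts, and the libraries of both genes overlapped in each group. *Pgls* (629 and 543) was then under *Tkt*, *Rpe* and *H6pd* in both MI groups.

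The make-up of the 10 genes shifted with these changes. *Pgd* made up 6.14% of the summed per-kilobase level in PKM2fl/fl sham and 13.0% in PKM2fl/fl MI libraries, and 6.37% and 13.7% in PKM2-/- hearts. *Tkt* went from 9.93% to 16.2% and from 10.2% to 15.3%. *Pgls* went the other way, from 22.2% to 14.8% and from 22.8% to 14.6%, and *Taldo1* kept the largest share in every group by transcript length. By coding length *Pgd* held the largest share in PKM2-/- MI hearts, 16.6% against 16.1% for *Taldo1*. The summed level of the 10 genes ran from 2344 to 2455 per kilobase in PKM2fl/fl sham and from 2816 to 3193 in PKM2fl/fl MI libraries. In PKM2-/- hearts it ran from 2145 to 2419 and from 3328 to 3648.

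**Figure D4:**
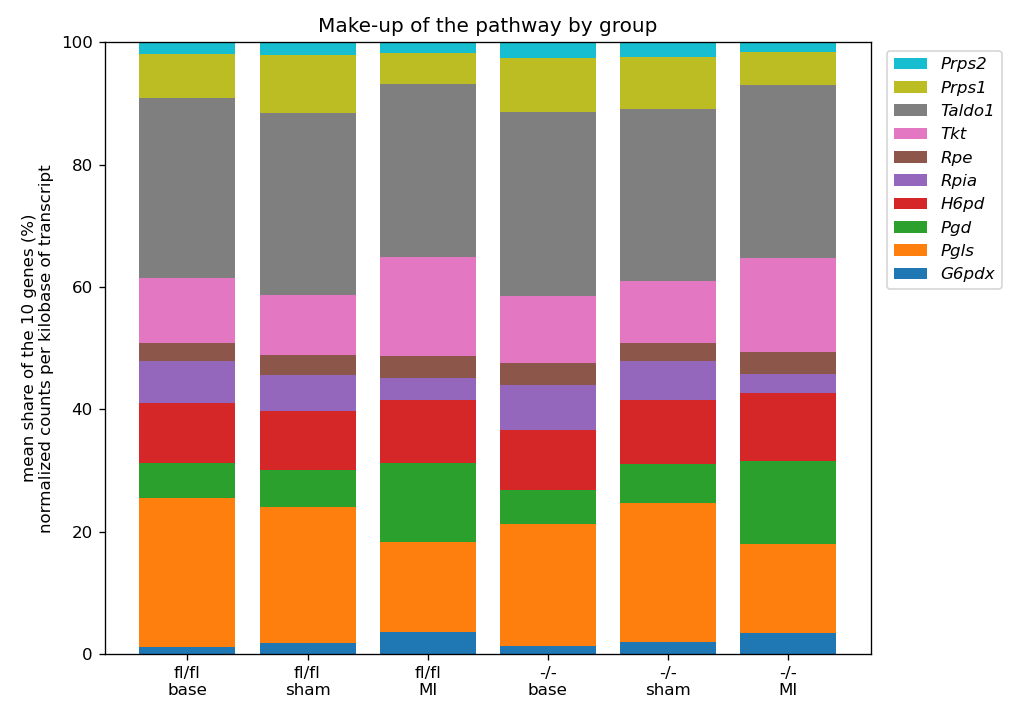
Mean share of each member (percent, vertical axis) in the summed normalized counts per kilobase of transcript of the 10 genes, by genotype and treatment. In both genotypes *Pgd* and *Tkt* took larger shares after MI and *Pgls* a smaller share, while *Taldo1* held the largest share in each group by transcript length.

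Ratios within a library do not depend on its scaling. *G6pdx* to *H6pd* sets the cytosolic entry enzyme against its counterpart of the endoplasmic reticulum. The ratio of normalized counts was 0.215 to 0.252 in PKM2fl/fl sham and 0.413 to 0.467 in PKM2fl/fl MI libraries. Its PKM2-/- range was 0.186 to 0.290 after sham surgery and 0.354 to 0.420 after MI. All MI ratios were above all sham ratios of the same genotype, and the mean log2 ratio was higher by 0.81 after MI (exact permutation test within genotype, two-sided, p = 0.005, the smallest that the 400 rearrangements allow). *Prps1* to *Prps2* was 1.11 to 1.51 in PKM2fl/fl sham and 0.782 to 0.961 in PKM2fl/fl MI libraries. It was 0.930 to 1.07 and 0.871 to 0.970 in PKM2-/- hearts, which overlapped. The log2 ratio was lower by 0.35 after MI over both genotypes (exact permutation test within genotype, two-sided, p = 0.015), as a difference of -0.59 in PKM2fl/fl and -0.11 in PKM2-/- hearts.

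**Figure D5:**
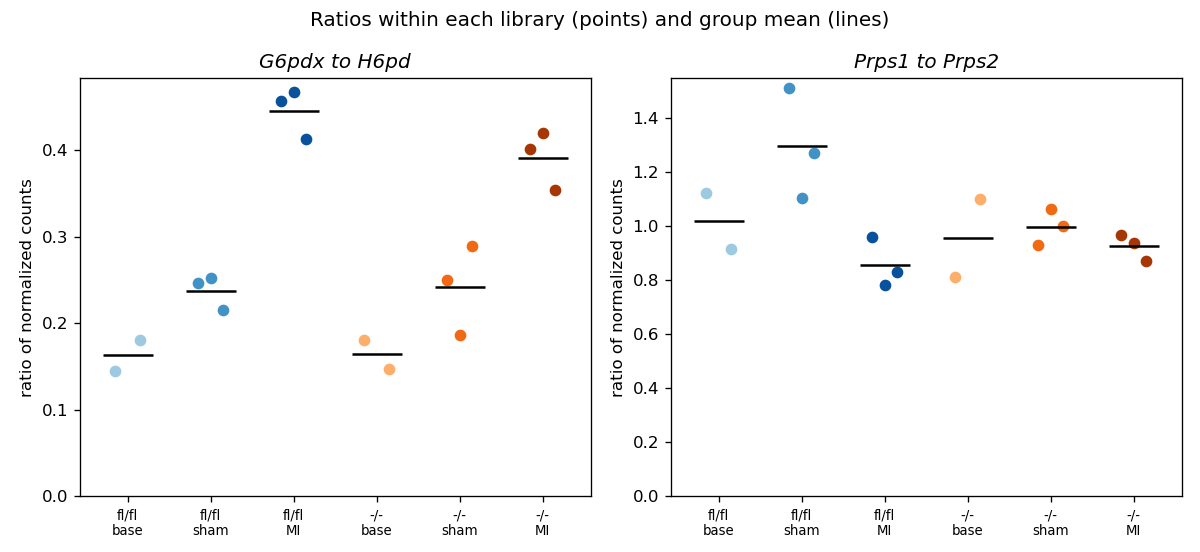
Ratios of normalized counts in each library (points, vertical axes from 0) with group means (lines), for *G6pdx* to *H6pd* (left) and *Prps1* to *Prps2* (right), by genotype and treatment. The *G6pdx* to *H6pd* ratio was 0.354 or more in every MI library and 0.290 or less in every other library.

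Related genes were read from lists by function. A list of 12 other genes for NADPH supply also held the NAD kinase genes *Nadk* and *Nadk2*, whose products make NADP+ and not NADPH. Of these 12 genes, 4 rose and 6 fell after MI in each genotype, with median log2 fold changes of -0.48 and -0.62. The most abundant of them fell. *Idh2*, the mitochondrial NADP-dependent isocitrate dehydrogenase, went from 21661 ± 1429.6 to 5918 ± 2415 normalized counts in PKM2fl/fl hearts (SD, n = 3 each, log2 fold change -1.96, limma adjusted p = 9.43e-06). *Nnt*, the mitochondrial transhydrogenase, had a log2 fold change of -1.75 in PKM2fl/fl and -2.72 in PKM2-/- hearts (limma adjusted p = 3.82e-05 and 5.56e-07). *Me1*, cytosolic malic enzyme, had -0.91 and -1.06 (limma adjusted p = 0.000164 and 2.85e-05). These 3 genes fell in the libraries in which *G6pdx* and *Pgd* rose.

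Among reductases that use NADPH, 4 of 9 tested rose and 3 fell in PKM2fl/fl, and 6 rose and 3 fell in PKM2-/- hearts (median log2 fold changes 0.44 and 0.63). *Gsr*, glutathione reductase, went from 823 ± 139 to 1660.4 ± 399 in PKM2fl/fl and from 792 ± 51.5 to 2525 ± 243 in PKM2-/- hearts (SD, n = 3 each, limma adjusted p = 8.58e-05 and 6.57e-07). *Txnrd1*, cytosolic thioredoxin reductase, rose by 0.78 and 0.96 on the log2 scale (limma adjusted p = 0.000205 and 2.3e-05). *Akr1b3*, aldose reductase, fell, with log2 fold changes of -1.11 and -1.01 (limma adjusted p = 2.73e-06 and 3.93e-06).

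Enzymes that use PRPP moved in both directions. Of 7 tested, 3 rose and 3 fell in each genotype (median log2 fold changes 0.19 and 0.31). *Nampt*, of NAD salvage, and *Ppat*, the committing enzyme of purine synthesis, fell in both genotypes, with log2 fold changes of -1.15 and -0.71 in PKM2fl/fl and -1.02 and -0.94 in PKM2-/- hearts (limma adjusted p = 7.51e-05, 0.000125, 0.000165 and 6.84e-06). *Hprt*, of purine salvage, had 0.19 and 0.31 (limma adjusted p = 0.251 and 0.0563). Of 10 further genes of pentose metabolism tested, 2 rose and 2 fell in PKM2fl/fl and 3 rose and 0 fell in PKM2-/- hearts. The most abundant of them, *Fggy*, *Prpsap1* and *Rbks*, had log2 fold changes of 0.30, -0.07 and -0.05 in PKM2fl/fl hearts, and none of the 3 passed in either genotype. No gene of these lists, or of the cell type lists, passed limma's test in a comparison between the genotypes or in the interaction. *Gapdh*, the glycolytic neighbour, had 1723 ± 286 normalized counts in PKM2fl/fl sham and 1505 ± 320.2 in PKM2fl/fl MI libraries, which overlapped, and 1969 ± 593 and 1283 ± 145 in PKM2-/- hearts, which did not (SD, n = 3 each).

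The genes whose pattern over the 16 libraries was most like each member's were found by Pearson's r of log2 values among 13470 genes with a mean of at least 100. The points share the 6 groups and their tissue make-up, so r is a description. For *G6pdx* they were *Plek* (r = 0.993), *Ptk2b* (0.991) and *Fcer1g* (0.990), and *Plek* and *Fcer1g* are expressed in leukocytes. For *Pgd* they were *Ptbp1* (0.994), *Plppr3* and *Sec61b*, and for *Tkt* they were *Gm14820* (0.990), *Suv39h1* and *Pde6h*. For *H6pd* they were *Slc7a11* (0.971), the cystine transporter gene, *Gsr* (0.968) and *Ctla2a*. *Taldo1* was closest to *Zfp36l2* (0.975), *Mcm7* and *Rps6ka4*. *Rpe* was closest to *Ppp4r3b* (0.962), *Gtf2f2* and *Fam76b*, and *Rpia* to *Sh3bp5l* (0.927), *Tmem177* and *Rnf166*. *Pgls*, *Prps1* and *Prps2* had as nearest genes *Cope* (0.898), *Taf13* (0.819) and *Senp6* (0.817).

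Some members share sequence with other genes, in which the counting could place their reads. *G6pd2*, an intronless copy of *G6pdx* with 93.2% identity over 2332 bases, held at most 2 reads in any library. *Prps1l3* matched *Prps1* at 90.5% over 1820 bases and held up to 615 reads, so the split between these genes is uncertain. *Prps1* also matched a stretch of *Mipol1* at 96.6% over 877 bases, a gene with up to 1627 reads in a library. *Taldo1* matched a stretch of *Cep85l* at 93.4% over 1253 bases, a gene with up to 201898 reads in a library, and the pseudogene *Gm17823*, which held at most 40 reads. *G6pdx* shared 8.13% of its exon bases with *Ikbkg* on the opposite strand.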

How the data were processed

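RNA from the left ventricle was depleted of rRNA and sequenced by the study in 16 libraries of 6 groups (2 genotypes, and baseline, sham surgery or MI), which were read from the sample labels. Per the labels and the study's methods, the authors used PRINSEQ for trimming, HISAT2 for alignment to mm10, featureCounts for counts of reads on genes and DESeq2 for normalization. The values the authors deposited are a normalized signal, the reads of a gene over the size factor that DESeq2 gave its library. Tool versions, annotation release, strand and multi-mapping settings were not given in the sources used here. The deposited table also holds the authors' own comparison (mean, log2 fold change with its error, test score and p-values), which was not used. 0 columns were left without a sample, and 0 rows lacked a gene name.

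All values of each library were whole multiples of a single step (100.0% within 0.1 of a whole read), so reads were recovered by division. Library totals were 20623769 to 71855101 reads. The labels number the libraries without saying which animal each came from, so the p-values measure the spread between these libraries. Numbers shared between groups paired no samples (see the closing section).

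In the main test, limma 3.58.1 in R 4.3.3 (limma-trend, 6 groups, all 16 libraries) was fitted to log2 of the normalized count plus 1, for the 20576 genes whose mean was 10 or more. P-values were adjusted by Benjamini-Hochberg over all of them, and an adjusted p under 0.05 was called. Fold changes are on this log2(value + 1) scale. On simulated counts for MI against sham in PKM2fl/fl hearts (20454 genes), it recovered 95% of genes changed 2-fold and 34% of those changed 1.5-fold. The simulation gave all genes the same dispersion and changed 100 genes at each fold. In the data 50.1% of all genes passed, so these rates do not measure the power of the reported test. Alternatives were DESeq2 1.42.0 and edgeR 4.0.16 on recovered reads, other scalings, a pseudocount of 0.1, no filter, a covariate for an rRNA-related locus, a replicate block, a 2-fold threshold, the compared groups alone, and each library left out. Ratios of genes were compared by exact permutation within genotype.

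The members and gene lists were chosen with earlier results of these data known. Named genes were the 10 members, the 3 genes of each list with the highest mean, the 3 genes most like each member, *Pkm*, *Gapdh* and near-identical copies. *Ly6g* was named after its values were seen. Transcript lengths, shared exons and copies (BLAST 2.17.0, at least 90% identity over 200 bases) were taken from GENCODE M39 on GRCm39. The promoter windows came from RefSeq on GRCm38.p6, and 10 of 10 members were matched.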

Additional observations from a re-analysis of the deposited data

Results flagged for a closer look

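Of the 10 members, 2 had a response with opposite signs in groups that were compared in the same way, with every library of the groups moving in those directions. The difference itself was tested as an interaction term in limma, chosen after seeing the data. *Rpe* was higher after sham surgery than at baseline in every PKM2fl/fl library and lower in every PKM2-/- library, a difference in log2 fold change of -0.56 (limma, Benjamini-Hochberg adjusted p = 0.762). Seen by genotype, it was higher in PKM2-/- than in PKM2fl/fl hearts at baseline and lower after sham surgery, which is the same difference of -0.56. *Taldo1* was higher after sham surgery in PKM2fl/fl libraries and lower in PKM2-/- libraries, a difference of -0.21 (limma adjusted p = 0.907). *Taldo1* was also lower in PKM2-/- than in PKM2fl/fl hearts after sham surgery and higher after MI, a difference of 0.38 (limma adjusted p = 0.430). None of these passed the adjusted threshold. The share of all genes with such opposite directions was not counted. Between sham and baseline, libraries lay apart in either direction for 32.5% of all genes in PKM2fl/fl and 34.5% in PKM2-/- hearts. Between the genotypes this held for 34.9% at baseline, 16.5% after sham surgery and 18.9% after MI.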

How the results depend on the processing

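For MI against sham in PKM2fl/fl hearts, 8 members were called. Total-count scaling gave 3, the rRNA locus covariate gave 3 and the 2-fold threshold gave 3, namely *G6pdx*, *Pgd* and *Tkt*. The scaling and the covariate also lowered the calls over all genes from 10299 to 6022 and 6014. With each library left out in turn, 6 to 7 members were called, where 43.3% to 49.6% of all genes were. *Rpe* was lost without sham replicate 1, 2 or 3 or MI replicate 3 (adjusted p 0.0666 to 0.241), and *Rpia* without sham replicate 2 or 3 or MI replicate 1 or 2 (0.0677 to 0.0889). In PKM2-/- hearts 7 members were called, the 2-fold threshold gave 3, and 7 were called without any 1 library (51.0% to 53.6% of all genes). Total-count scaling reversed *Rpia* there to a log2 fold change of 0.0729, as it shifted the median of all genes by 0.52. It shifted that median by -0.18 in PKM2fl/fl hearts, and by -0.59, -0.33 and 0.36 in the comparisons between the genotypes at baseline, after sham surgery and after MI. Between the genotypes after MI, 0 to 2 members were called with 1 library left out, the 2 being *H6pd* and *Rpe* without PKM2fl/fl MI replicate 3. In the interaction 0 to 1 were called, the 1 being *Rpe* without the same library. For sham against baseline in PKM2-/- hearts, the call of *G6pdx* became 0 calls with edgeR, total-count scaling, no filter, the replicate block, the 2-fold threshold and the compared groups alone, and was 0 to 1 with a library left out (0 without baseline replicate 2 or sham replicate 1 or 3, adjusted p up to 0.373). With the number as a replicate block, 8 and 7 members were called for MI, and no other call changed than that of *G6pdx* after sham surgery. Numbers pair no samples in the labels, and deviations of same-numbered libraries correlated at -0.20 to 0.13, with 3 of 16 libraries closest to one of their own number. By coding length, 2 of the 10 members, *Taldo1* and *Pgls*, kept their place in the order of the means over all 16 libraries, but not in every group. Both log2 ratios kept their sign and call, at 0.74 to 0.87 for *G6pdx* to *H6pd* and -0.41 to -0.27 for *Prps1* to *Prps2* with a library left out. DESeq2 called more genes between the genotypes over the whole table than limma (19, 275 and 1043 against 2, 2 and 199) and edgeR 1, 2 and 138, but 0 members each. A total-count scaling without rRNA loci, chosen after seeing the data, called 6 members for MI in each genotype. It called 8936 of 20621 genes in PKM2fl/fl and 11581 of 20621 in PKM2-/- hearts.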
